A study of Mus musculus with 4 samples.

Results

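The secreted frizzled and Dickkopf antagonists of Wnt signalling were followed here as 10 genes: Sfrp1, Sfrp2, Sfrp4, Sfrp5, Frzb, Dkk2, Dkk3, Wif1, Kremen1 and Apcdd1. They were chosen by name, as every probe set whose annotated gene symbol equals that of a member, which gave 24 of the 45037 probe sets in the tables and 10 of the 20585 genes. RNA of cultured cardiac fibroblasts was hybridized to 4 Affymetrix arrays, 1 for each of untreated WT cells, WT cells with phenylephrine, untreated PMCA4-/- cells and PMCA4-/- cells with phenylephrine. The cells came from male mice 3 months old and were kept in culture for 4 days. The PMCA4-/- mice lack plasma membrane calcium ATPase 4, the calcium pump encoded by Atp2b4, in every tissue and not in fibroblasts alone. Treated cells received 30 µM phenylephrine, an agonist of α1-adrenergic receptors, for 72 h. Each array carried labelled RNA made from 6 µg of total RNA that the authors had pooled from 3 batches of fibroblasts. Since a condition had a single array (n = 1), no difference has a replicate check within these arrays. Differences are given as sizes, without a p-value, and their precision is limited by the number of arrays.

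Wnt proteins bind Frizzled receptors together with the co-receptors LRP5 and LRP6, and in the canonical branch of the pathway this stabilizes β-catenin, which then acts in the nucleus with TCF and LEF factors. The antagonists work outside the cell or at its surface. Secreted frizzled-related proteins carry a cysteine-rich domain like that of the Frizzled receptors and bind Wnt proteins, as does Wif1, whereas Dickkopf proteins bind the LRP co-receptors. In the heart, cardiac fibroblasts are a source of secreted Wnt modulators that can act on neighbouring cardiomyocytes, and Wnt signalling takes part in hypertrophic growth and in repair after injury.

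The deposited intensities are on a linear scale. Those estimated with PUMA are the main values, and those of the Robust Multiarray Average (RMA) are given beside them. The median PUMA intensity over all probe sets was 34.0 on each array, and a value below the median of its array is called dim. Where 1 side of a comparison was dim, the fold change is a lower bound computed with that median in place of the dim value, and where both sides were dim no fold change is reported for an antagonist. Each gene was represented by the probe set that was brightest on average, and it was counted where that average was above 35.1, which left 11423 genes. Across these genes the log2 values of the 2 arrays of a genotype correlated at 0.995, and those of arrays of different genotypes at 0.857 to 0.860. Genes are not independent replicates.

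The label of the cells was checked against marker genes. Of 12 fibroblast markers, 11 were above the array median on all 4 arrays, with a summed intensity of 92911 to 97610 in WT and 96829 to 102441 in PMCA4-/- cells, and Tcf21 was dim on every array. None of the 5 cardiomyocyte markers measured was counted, and of 6 endothelial markers only Tek was. Among the cardiomyocyte markers, Tnni3 was above the median in WT (37.9 and 40.2) and dim in PMCA4-/- cells (9.49 and 13.7). With RMA it was likewise above the median only in WT, at 93.5 and 96.6 against 48.3 and 56.1. The other cardiomyocyte markers were dim on every array. Of 6 macrophage and leukocyte markers 4 were counted. The summed intensity of the 6 was 1505 to 1672 in WT and 2189 to 2430 in PMCA4-/- cells. Csf1r gave 153 and 180 in WT against 378 and 492 in PMCA4-/- cells, and Cd14 891 and 987 against 1295 and 1431. The genotypes were closer in Lyz2 (379 and 422 against 441 and 431) and Adgre1 (43.9 and 49.4 against 44.5 and 39.9). Ptprc was dim at 2.88 to 5.25, and Cd68 was dim on every array. Of 6 epicardial markers 2 were counted and went opposite ways: Tbx18 gave 557 and 534 in WT against 854 and 928 in PMCA4-/- cells, and Wt1 91.9 and 87.7 against 57.4 and 41.0. Of 6 smooth muscle and pericyte markers 3 were counted, of which Rgs5 gave 185 and 186 against 30.3 and 34.4, whereas Cspg4 gave 93.1 and 84.0 against 88.9 and 110.3, and Pdgfrb 7378 and 7675 against 7779 and 7159. The part of these cells in the results that follow was not tested. The single probe set for Atp2b4 was dim in untreated WT cells (19.6), in WT cells with phenylephrine (23.3) and in untreated PMCA4-/- cells (31.6), and reached 37.9 with phenylephrine in PMCA4-/- cells. With RMA the set was dim on all 4 arrays, at 19.2, 16.0, 19.6 and 20.9 in that order. It did not check the genotype, since its place relative to the deleted part of the gene was not known here.

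Of the 10 antagonists, 7 were counted (Sfrp1, Sfrp2, Sfrp4, Dkk2, Dkk3, Kremen1 and Apcdd1), and Sfrp5, Frzb and Wif1 were not. Sfrp2 and Dkk3 were at least 2-fold higher in PMCA4-/- than in WT cells without phenylephrine, against 4.89% of all counted genes, and the same 2 genes were at least 2-fold higher with phenylephrine, against 5.24%. No counted antagonist was at least 2-fold lower, against 5.16% of genes without and 5.32% with phenylephrine, although 3 further probe sets of Apcdd1 were. Sfrp2 passed the filter through its PMCA4-/- arrays alone and so had to differ between genotypes to be counted. The median log2 difference of the 7 counted antagonists was 0.38 without and −0.06 with phenylephrine, beside −0.01 and −0.01 over all counted genes, and 95% of all counted genes lay between −1.68 and 1.60 without and between −1.69 and 1.64 with phenylephrine.

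**Figure D1:**
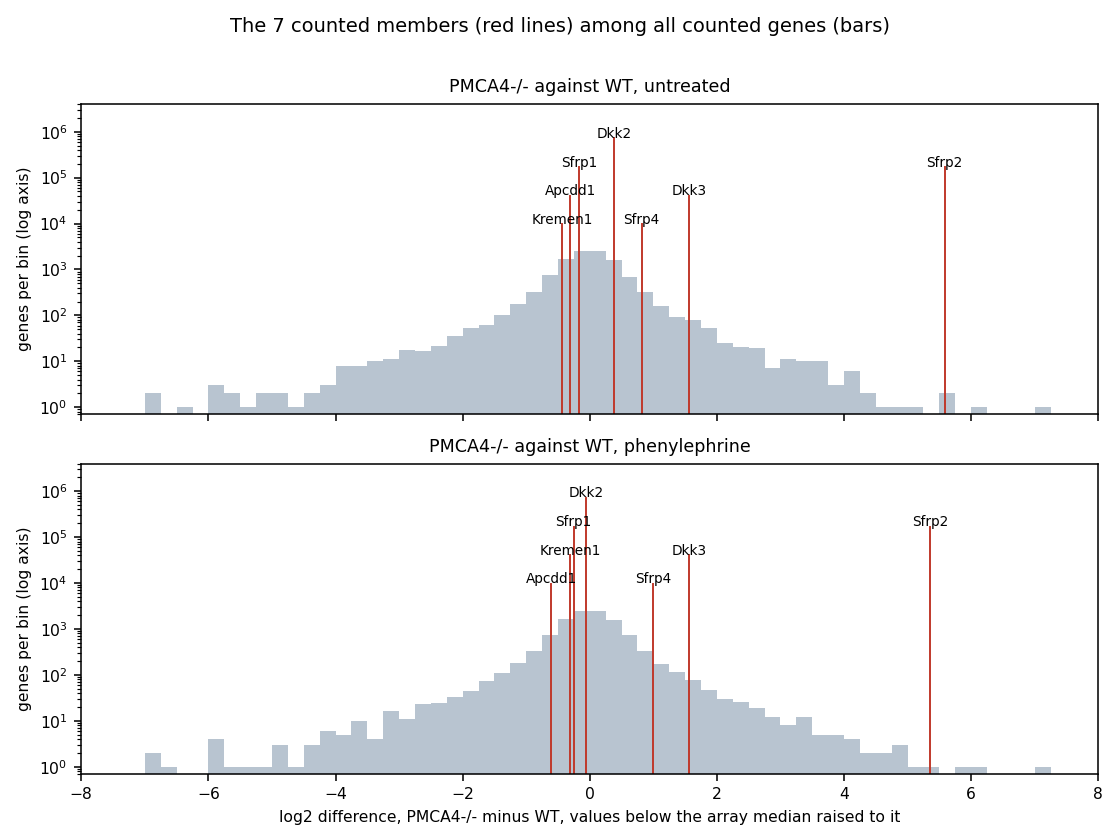
Distribution of the log2 difference between PMCA4-/- and WT over the 11423 counted genes (bars, number of genes on a log axis, in steps of 0.25), with the 7 counted antagonists as red lines, without phenylephrine (top) and with it (bottom). Values below the array median were raised to it. Sfrp2 stands at 5.58 and 5.35, Dkk3 at 1.57 and 1.56, and the other 5 between −0.61 and 1.00.

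Sfrp2, a secreted protein that binds Wnt and has been described as a paracrine factor in the injured heart, showed the largest difference of the 10 genes. Its probe set 1448201_at gave 0.300 in untreated WT cells, 0.472 in WT cells with phenylephrine, 1631 in untreated PMCA4-/- cells and 1390.5 in PMCA4-/- cells with phenylephrine. Both WT arrays were far below the array median and both PMCA4-/- arrays far above it. The intensity was therefore at least 48.0-fold higher in PMCA4-/- cells without phenylephrine and at least 40.9-fold higher with it, both of them lower bounds. With RMA the 4 values were 19.7, 14.7, 2226 and 1805 in the same order, and the bounds were at least 30.5-fold and at least 24.9-fold. Apart from the arrays, the paper reports higher sFRP2 mRNA by quantitative PCR and higher protein by western blot in PMCA4-/- cardiac fibroblasts. It also reports more sFRP2 in the medium of these cells by an immunoassay. In RNA of whole cultures, fewer cells that express a gene and less RNA per cell cannot be told apart.

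The 300 bases around the start of Sfrp2 are shown because this was the gene with the largest difference. They run from 250 bases before the transcript start used by the sequence table to 50 bases after it, at chr3:83766071-83766370 on the plus strand of mouse assembly GRCm38.p6 in RefSeq, and CpG dinucleotides are in capitals. That start lies 571 bases downstream of the outermost start annotated for the gene, so the window does not cover the latter.
Sfrp2: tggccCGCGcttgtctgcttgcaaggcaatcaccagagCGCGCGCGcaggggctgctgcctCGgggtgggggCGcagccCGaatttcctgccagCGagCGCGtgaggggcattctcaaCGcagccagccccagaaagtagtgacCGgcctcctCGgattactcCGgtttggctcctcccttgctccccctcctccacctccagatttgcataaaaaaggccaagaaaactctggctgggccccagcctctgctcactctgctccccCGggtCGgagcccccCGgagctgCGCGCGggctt
The window has a GC content of 66.0% and holds 22 CpG dinucleotides, more than 76.9% of the 32851 promoter windows of the same length, whose medians were 52.7% and 7. It was searched on both strands for short motifs. CTTTGAT, a core of TCF and LEF sites, occurs in 3.73% of all windows, and TATAAA, the sequence of the TATA box, in 13.6%. GGGNNTTCC, which occurs in 5.82%, resembles NF-κB sites but is shorter than their usual consensus. NF-κB sites of the usual length were not searched for. None of these motifs was found in the Sfrp2 window. A promoter was in the sequence table for 5 of the 10 antagonists, and among the other 4 (Sfrp5, Frzb, Dkk2 and Wif1) a TATAAA was found in Dkk2 and in Wif1, 1 GGGNNTTCC in Dkk2, and CTTTGAT in none.

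The 5 counted genes whose pattern over the 4 arrays was most like that of Sfrp2 were Chil1, Vnn1, Igf2, Plac8 and Arhgdib, at Euclidean distances of 0.34, 0.54, 0.60, 0.65 and 0.78 between centred log2 values in which every dim value had been raised to the array median. The WT side of Sfrp2 is set by that step, and so is its likeness to genes with a measured level in WT such as Igf2. Chil1, a chitinase-like secreted protein, gave 0.0435 and 0.270 in WT against 1224 and 1199 in PMCA4-/- cells, each without and then with phenylephrine. The gene lies on chromosome 1, and its distance from the targeted gene Atp2b4 was not computed. The part of that position in the difference of Chil1 was not tested. Igf2, an insulin-like growth factor, gave 171 and 117 in WT against 8526 and 8393 in PMCA4-/- cells. Like Sfrp2, both were high on the 2 PMCA4-/- arrays and differed little with phenylephrine there. Over 4 arrays of 2 genotypes this measure mostly reflects how large the difference between genotypes was.

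**Figure D2:**
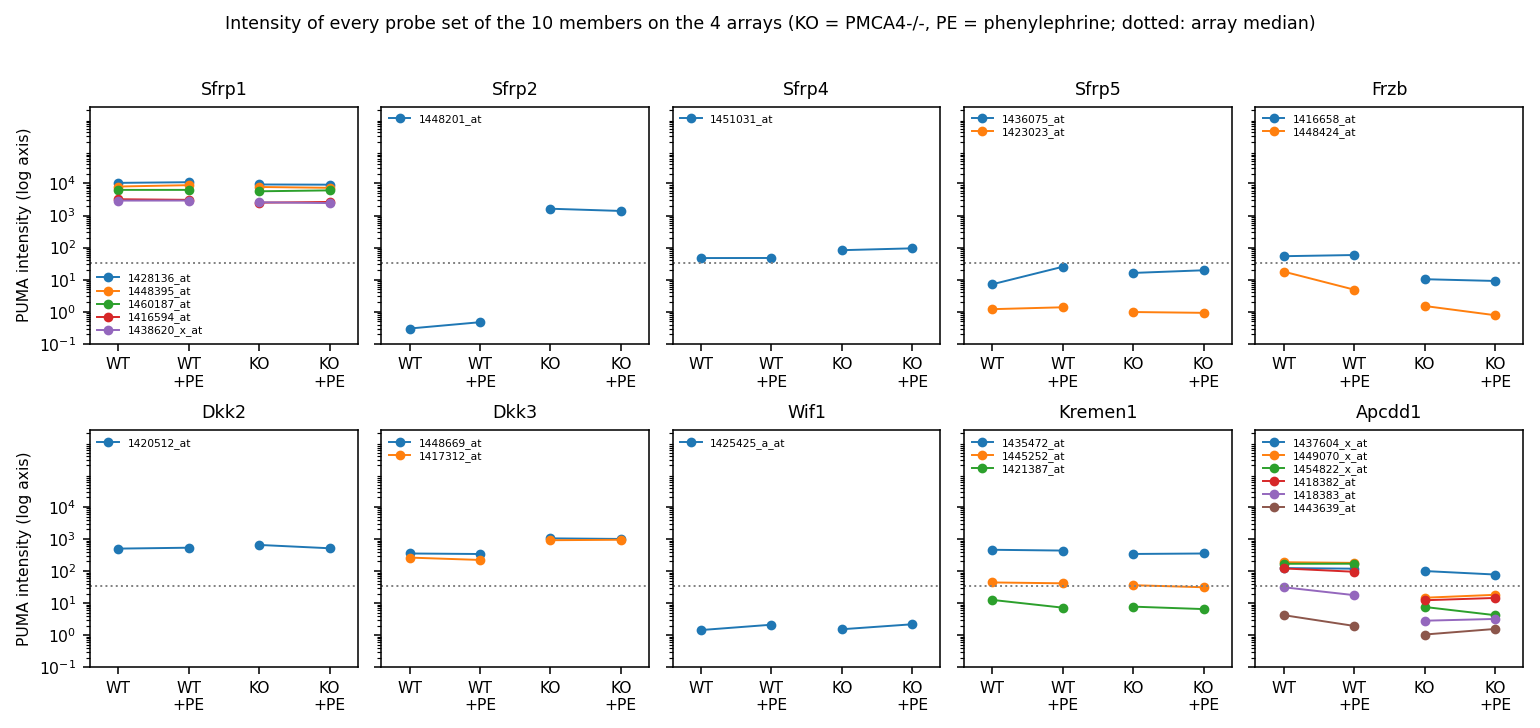
PUMA intensity (log axis) of the 24 probe sets of the 10 antagonists on the 4 arrays (WT and PMCA4-/- cells, the latter marked KO, without and with phenylephrine, marked PE), with 1 panel per gene, 1 line per probe set and a dotted line at the array median of 34.0. Sfrp2 stands below 1 on both WT arrays and at 1631 and 1390.5 on the PMCA4-/- arrays, both Dkk3 lines are higher in PMCA4-/- cells, and 3 lines of Apcdd1 pass from above to below the dotted line.

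Of the other secreted frizzled-related proteins, Sfrp1 was measured by 5 probe sets, all above the median on every array. The set it was read from, 1428136_at, gave 10449.5 in untreated WT cells, 10950.2 in WT cells with phenylephrine, 9309.7 in untreated PMCA4-/- cells and 9175 in PMCA4-/- cells with phenylephrine. All 5 sets were lower in PMCA4-/- cells, by log2 differences of −0.36 to −0.05 without and −0.27 to −0.05 with phenylephrine, and all 5 were also lower with RMA, by −0.31 to −0.18 and −0.25 to −0.05. For the set it was read from, 69.5% of counted genes had a larger absolute difference without phenylephrine and 55.7% with it. Sfrp1 thus had a small difference of one direction in every probe set, within the range of most genes.

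Sfrp4, which also binds Wnt proteins, was measured by 1 probe set, 1451031_at. It gave 47.2 in untreated WT cells, 47.5 in WT cells with phenylephrine, 83.2 in untreated PMCA4-/- cells and 94.9 in PMCA4-/- cells with phenylephrine. Both PMCA4-/- arrays were above both WT arrays, with log2 differences of 0.82 without and 1.00 with phenylephrine, the latter just under the 2-fold threshold (a fold change of 1.999). With RMA the 4 values were 156, 156, 201 and 210 in that order, and the differences were smaller, at 0.37 and 0.43.

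Sfrp5, known from fat tissue as an antagonist of Wnt5a, was dim with PUMA in both its probe sets on all 4 arrays. Probe set 1436075_at gave 7.19 in untreated WT cells, 25.3 in WT cells with phenylephrine, 16.2 in untreated PMCA4-/- cells and 19.6 in PMCA4-/- cells with phenylephrine, and 1423023_at lay between 0.924 and 1.38. With RMA, 1423023_at was above the median on all 4 arrays, at 102, 106, 115 and 135 in that order, so the tables differed on whether Sfrp5 was measured above the median. Neither estimate placed its genotypes 2-fold apart where both were above the median.

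Frzb, the frizzled-related protein known from cartilage and also called Sfrp3, went the other way from Sfrp2. Its brighter probe set 1416658_at gave 54.0 in untreated WT cells, 58.7 in WT cells with phenylephrine, 10.3 in untreated PMCA4-/- cells and 9.12 in PMCA4-/- cells with phenylephrine. It was above the median on both WT arrays and dim on both PMCA4-/- arrays, and at least 1.59-fold lower in PMCA4-/- cells without and at least 1.73-fold lower with phenylephrine. With RMA all 4 values (60.9, 66.4, 32.2 and 26.2) were below the array median. The second set, 1448424_at, was dim throughout, between 0.780 and 17.9. The mean of 1416658_at, 33.0, lay just under the filter of 35.1, which is why Frzb was not counted.

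The promoter window of Frzb is shown as that of a frizzled-related gene that was dim in PMCA4-/- and above the median in WT cells with PUMA. It lies at chr2:80447347-80447646 on the minus strand of GRCm38.p6 in RefSeq, covers the same 300 bases around the start as for Sfrp2, and again has its CpG dinucleotides in capitals.
Frzb: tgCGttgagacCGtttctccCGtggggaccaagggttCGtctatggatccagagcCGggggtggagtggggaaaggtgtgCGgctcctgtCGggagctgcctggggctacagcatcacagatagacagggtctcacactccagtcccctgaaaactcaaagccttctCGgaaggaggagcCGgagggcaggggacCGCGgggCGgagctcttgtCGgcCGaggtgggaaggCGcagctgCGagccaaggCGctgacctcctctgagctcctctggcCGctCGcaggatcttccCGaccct
It has a GC content of 64.7% and 20 CpG dinucleotides, more than 73.5% of all windows, and none of the 3 motifs was found in it. In base composition the windows of Frzb and Sfrp2 were close to each other.

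Of the Dickkopf proteins, Dkk2 binds LRP6 and can inhibit or weakly activate the pathway depending on the cell, and Dkk3 is the divergent member of the family, for which LRP binding is not well established. Dkk3 was measured by 2 probe sets. Probe set 1448669_at gave 356 in untreated WT cells, 342 in WT cells with phenylephrine, 1053 in untreated PMCA4-/- cells and 1009.7 in PMCA4-/- cells with phenylephrine. Probe set 1417312_at gave 265, 224, 922 and 953 in the same order. In both sets the 2 PMCA4-/- arrays lay above the 2 WT arrays, and all values were well above the median.

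The log2 difference of Dkk3 between PMCA4-/- and WT cells was 1.57 without and 1.56 with phenylephrine in the first set, and 1.80 and 2.09 in the second. With RMA the differences of both sets lay between 1.45 and 1.76. Among the 11423 counted genes Dkk3 was the 229th highest without and the 239th highest with phenylephrine. Unlike Sfrp2, it had a measured level in both genotypes, so that its fold changes of 2.96 and 2.95 in the first set are values and not bounds.

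Dkk2 was measured by 1 probe set, 1420512_at, with 505 in untreated WT cells, 538 in WT cells with phenylephrine, 657 in untreated PMCA4-/- cells and 517 in PMCA4-/- cells with phenylephrine. The untreated PMCA4-/- array was the highest and the other 3 lay close together. The log2 difference between genotypes was 0.38 without and −0.06 with phenylephrine, and with RMA 0.32 and −0.01.

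Kremen1 is a transmembrane receptor of Dickkopf proteins that helps to remove LRP6 from the cell surface. Its probe set 1435472_at gave 464 in untreated WT cells, 439 in WT cells with phenylephrine, 344 in untreated PMCA4-/- cells and 355 in PMCA4-/- cells with phenylephrine. Both PMCA4-/- values were below both WT values, with log2 differences of −0.43 and −0.30, and with RMA of −0.33 and −0.29. Probe set 1445252_at, close to the median, was lower as well (44.4 and 41.8 in WT against 36.4 and 31.5), and 1421387_at was dim on all arrays, between 6.56 and 12.7.

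Wif1, which binds Wnt proteins through a domain unlike that of the frizzled-related proteins, was dim on all 4 arrays in its only probe set, 1425425_a_at, with 1.45 in untreated WT cells, 2.13 in WT cells with phenylephrine, 1.54 in untreated PMCA4-/- cells and 2.20 in PMCA4-/- cells with phenylephrine. With RMA it lay between 6.87 and 7.36, also below the median on every array.

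Apcdd1, a membrane protein that binds Wnt proteins and LRP5, was measured by 6 probe sets that disagreed with each other. The set it was read from, 1437604_x_at, gave 125 in untreated WT cells, 119 in WT cells with phenylephrine, 101 in untreated PMCA4-/- cells and 78.5 in PMCA4-/- cells with phenylephrine, with log2 differences of −0.31 and −0.61 between genotypes. With RMA the same set differed by 0.05 in both comparisons. Here the 2 genotypes were close, and the direction depended on the estimate.

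The next 3 probe sets of Apcdd1 gave a different picture. Probe set 1449070_x_at gave 189.8 and 181 in WT against 14.8 and 18.3 in PMCA4-/- cells, each without and then with phenylephrine, and was at least 5.58-fold and at least 5.33-fold lower in PMCA4-/- cells. Probe set 1454822_x_at gave 169.6 and 170.6 in WT against 7.64 and 4.24 in PMCA4-/- cells, at least 4.99-fold and at least 5.02-fold lower. Probe set 1418382_at gave 122 and 95.7 in WT against 12.4 and 14.6 in PMCA4-/- cells, at least 3.58-fold and at least 2.82-fold lower. All 3 were above the median on both WT arrays and dim on both PMCA4-/- arrays. With RMA their log2 differences were −3.30, −2.88 and −2.12 without and −2.53, −2.50 and −1.69 with phenylephrine. The remaining sets, 1418383_at and 1443639_at, were dim on all 4 arrays, at 2.85 to 31.5 and 1.05 to 4.25. Affymetrix gives the suffix x_at to sets with probes that may match other transcripts, which applies to the set Apcdd1 was read from and to 2 of the 3 sets that were lower.

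**Figure D3:**
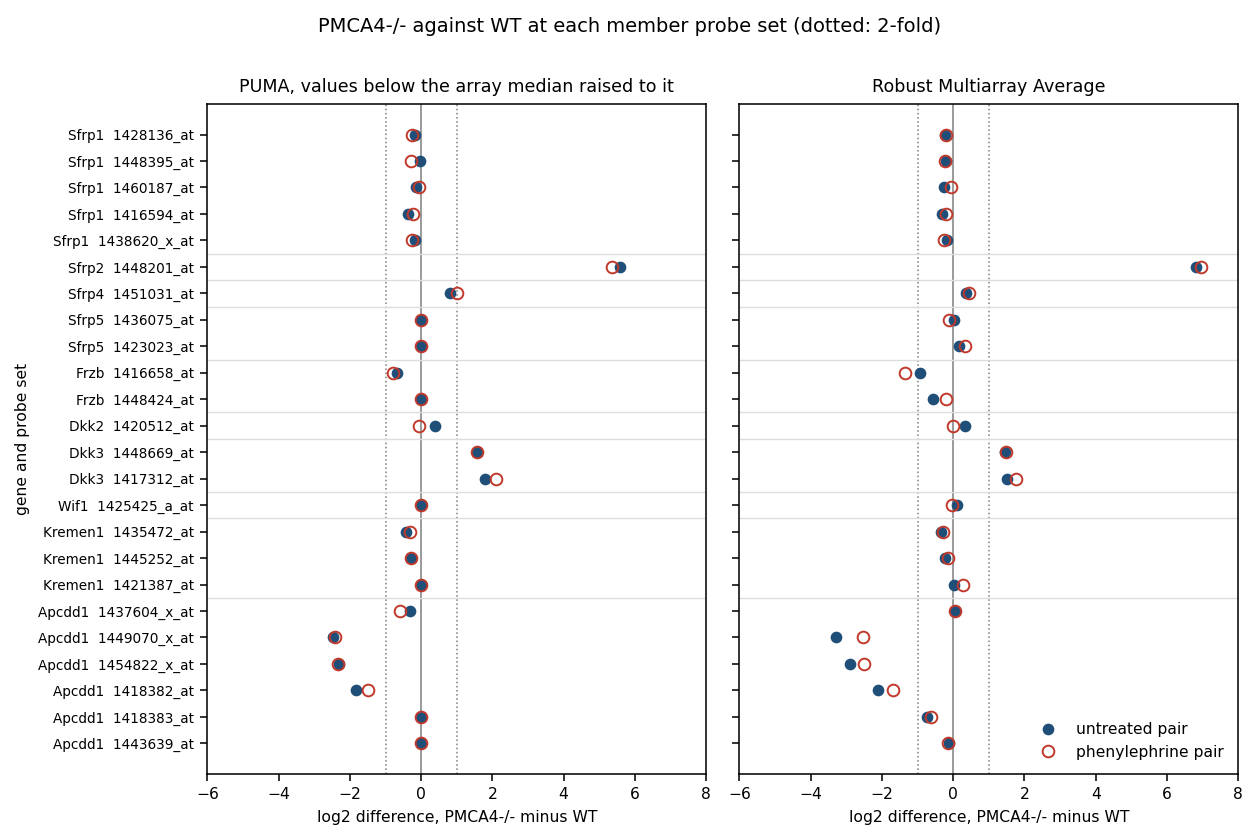
Log2 difference between PMCA4-/- and WT of each of the 24 probe sets, without phenylephrine (filled) and with it (open), from PUMA with values below the array median raised to it (left) and from RMA without that step (right). Dotted lines mark 2-fold. Only the probe sets of Sfrp2 and Dkk3 lie to the right of the upper line in both panels, and only 3 sets of Apcdd1 lie to the left of the lower line at both pairs in both panels.

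Over all 24 probe sets of the 10 genes, 16 passed the filter, 11 were above the median on all 4 arrays and 7 were dim on all 4. Sets of one gene share its transcripts and are not separate measurements of a group.

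The differences were also set beside those of the 100 counted genes nearest to each antagonist on its chromosome. The neighbours of Sfrp2 had a median log2 difference of 0.14 without and 0.20 with phenylephrine, and those of Dkk3 −0.03 and −0.01. Dkk3 itself was at 1.57 and 1.56, and Sfrp2 at 5.58 and 5.35 with dim values raised to the array median. The spread of the neighbours around their median was not computed. The neighbours of Frzb had medians of −0.51 and −0.52 and those of Kremen1 −0.38 and −0.33, of the same sign as these genes, and the neighbours of Sfrp1 0.32 and 0.29, of the opposite sign. The neighbours of Dkk2 had medians of 0.33 and 0.31 and those of Apcdd1 −0.27 and −0.23. With this median subtracted, Sfrp1 was further from 0, at −0.49 without and −0.55 with phenylephrine in place of −0.17 and −0.26. Kremen1 was then at −0.06 without and 0.02 with phenylephrine, Dkk2 at 0.05 and −0.37, and Apcdd1 at −0.03 and −0.38. For Apcdd1 these values are of the probe set it was read from, 1437604_x_at. Sets of Apcdd1 that were lower by more, such as 1449070_x_at at least 5.58-fold lower without phenylephrine, were not treated in this way. The part of the chromosome region in the differences was not tested.

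The cells with phenylephrine were then compared with the untreated cells of each genotype. None of the 7 counted antagonists was 2-fold apart between treated and untreated cells of a genotype, against 0.473% of all counted genes in WT and 0.508% in PMCA4-/- cells. These shares include genes that were dim on both arrays, and with dim values raised to the array median only 2 genes in WT and 6 in PMCA4-/- cells were 2-fold apart. In WT cells their log2 differences, treated minus untreated, lay between −0.08 in Kremen1 and 0.09 in Dkk2, except for Sfrp2, which was dim on both WT arrays. In PMCA4-/- cells they lay between −0.36 in Apcdd1 and 0.19 in Sfrp4, with Dkk2 at −0.35 and Sfrp2 at −0.23. The median of the 7 was 0.01 in WT and −0.06 in PMCA4-/- cells, beside 0.04 and 0.03 over all counted genes, of which 95% were less than 0.36 away from 0 in either genotype, a limit that Apcdd1 just passed in PMCA4-/- cells with PUMA, though with RMA its probe set differed by 0.01. Regardless of sign, the median size of the change with PUMA was 0.07 for the antagonists and 0.08 for all counted genes in WT, and 0.19 and 0.08 in PMCA4-/- cells. With RMA this median was not computed. The RMA changes in PMCA4-/- cells were 0.02 in Sfrp1, 0.07 in Sfrp4, −0.04 in Dkk3, −0.06 in Kremen1 and 0.01 in Apcdd1. Those of Sfrp2 and Dkk2 were larger, at −0.30 and −0.34. The comparisons between genotypes and those with phenylephrine share arrays.

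Other genes of the pathway were taken from 5 lists, whose counts stand beside the shares of all counted genes given above, 4.89% higher and 5.16% lower without phenylephrine and 5.24% and 5.32% with it. Of 19 Wnt ligands, 8 were counted, and 1 was at least 2-fold higher and 1 lower in PMCA4-/- cells without phenylephrine, and 2 higher and 0 lower with it. Wnt5b, a ligand mostly known for signalling without β-catenin, was the one that was higher in both comparisons, with 45.9 and 55.0 in WT against 178 and 159 in PMCA4-/- cells, and log2 differences of 1.96 and 1.54. The median over the counted ligands, with values below the array median raised to it, was 0.37 without and 0.36 with phenylephrine.

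Of 16 Wnt receptors, 14 were counted, of which 3 were higher and 0 lower without phenylephrine and 4 higher and 0 lower with it, at medians of 0.45 and 0.59. The Frizzled receptors Fzd4, Fzd5 and Fzd6 were higher in both comparisons. Fzd6 gave 0.565 and 0.367 in WT against 113 and 130.0 in PMCA4-/- cells, at least 3.34-fold and at least 3.82-fold higher. Fzd4 gave 16.7 and 16.6 against 86.2 and 81.8, at least 2.54-fold and at least 2.40-fold higher. Fzd5 was above the median throughout, with 198 and 189.6 against 426 and 405, and log2 differences of 1.11 and 1.10. Like Sfrp2, Fzd4 and Fzd6 passed the filter through their PMCA4-/- arrays alone and so had to be higher there to be counted.

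Of 21 other extracellular and membrane modulators 19 were measured and 7 counted, with 0 higher and 1 lower in each comparison, at medians of −0.24 without and 0.05 with phenylephrine. The lower gene was Rspo3, a secreted R-spondin that strengthens Wnt signalling, with 326 and 295 in WT against 3.41 and 4.21 in PMCA4-/- cells, at least 9.59-fold and at least 8.67-fold lower. Its arrays were ordered the opposite way to those of Sfrp2, high in WT and dim in PMCA4-/- cells. Rspo3 passed the filter through its WT arrays alone and so had to be lower in PMCA4-/- cells to be counted.

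Of 16 genes known as targets of β-catenin, 12 were counted, of which 2 were higher and 3 lower in each comparison, at medians of −0.35 and −0.21. Of the higher genes, only Ccnd1 was the same in both comparisons. Nkd2, a feedback inhibitor of the pathway, gave 249.5 and 239.7 in WT against 57.4 and 85.3 in PMCA4-/- cells, with log2 differences of −2.12 and −1.49. Sp5, a transcription factor, gave 137 and 106 against 6.36 and 5.57, at least 4.03-fold and at least 3.12-fold lower. Bmp4, a growth factor, gave 151 and 129.8 against 0.811 and 0.608, at least 4.43-fold and at least 3.82-fold lower. Sp5 and Bmp4 passed the filter through their WT arrays alone and so had to be lower in PMCA4-/- cells to be counted. Ccnd1, which encodes cyclin D1 and drives entry into the cell cycle, went the other way, with 748 and 764 against 1723 and 1625 and log2 differences of 1.20 and 1.09. The targets therefore did not share a direction.

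Pax2 and NF-κB, which the paper considers upstream of Sfrp2, were followed as a list of 6 genes, with the NF-κB subunit genes chosen here. Pax2 was not analysed here, and 4 of the other 5 were counted, none of them 2-fold apart in either comparison, with medians of −0.08 and −0.01. The paper reports higher NF-κB reporter activity and Pax2 expression in PMCA4-/- fibroblasts, and less sFRP2 mRNA there under an NF-κB inhibitor. RNA of the subunits does not measure that activity.

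**Figure D4:**
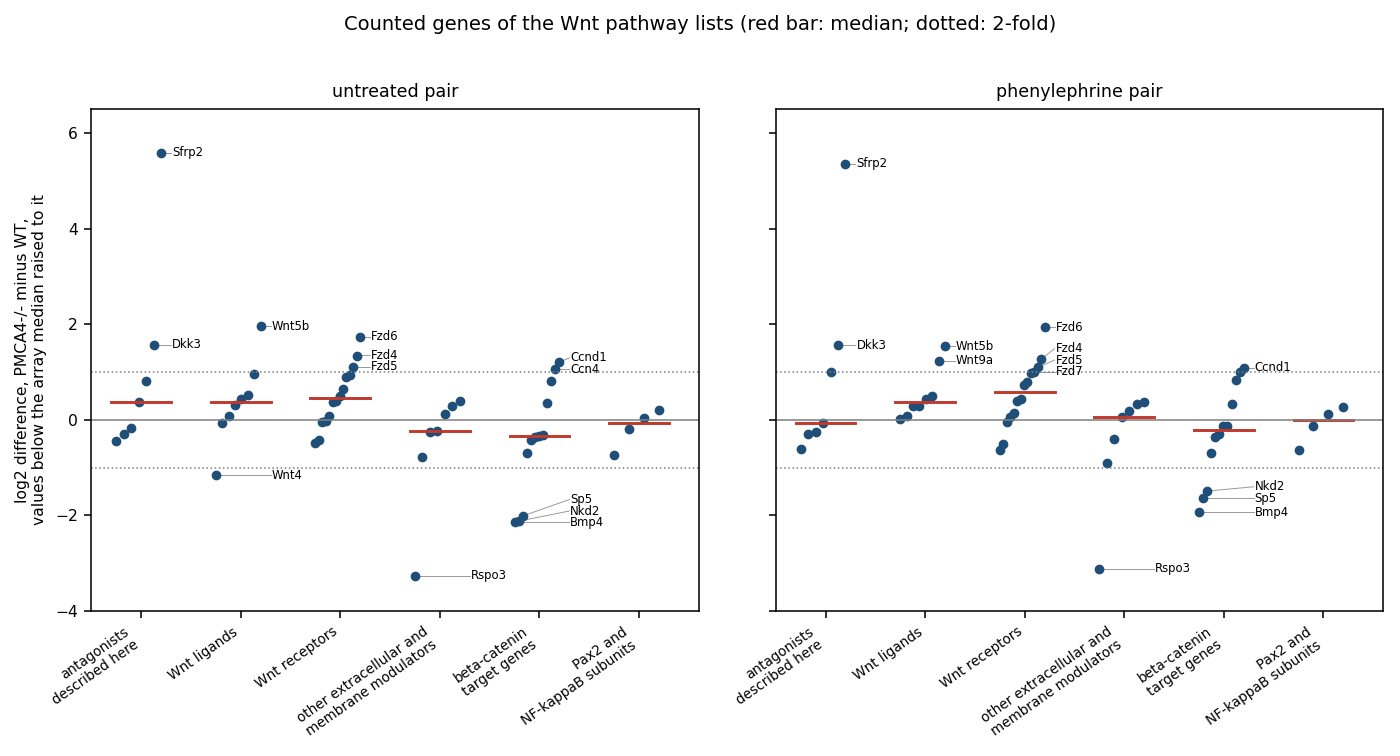
Log2 difference between PMCA4-/- and WT of every counted gene of the antagonists and of the 5 pathway lists, without phenylephrine (left) and with it (right), with values below the array median raised to it; red bars are medians, dotted lines 2-fold, and genes at least 2-fold apart on this scale are named. Sfrp2 lies highest and Rspo3 lowest in both panels, at 5.58 and −3.26 on the left.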

How the data were processed

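RNA of cultured mouse cardiac fibroblasts was measured on 4 Affymetrix arrays, 1 per genotype and treatment, grouped by the submitters' source names. The authors deposited linear intensities per probe set, 1 table from PUMA and 1 from Robust Multiarray Average, and a further table repeats the PUMA values (180148 of 180148 equal within a share of 0.0001). The submitters' notes also name MAS5. For tool versions and a genome build: not given in the sources used here. The tables' columns of fold changes and probabilities of a positive log ratio are the authors' own comparisons and were not used. The paper states 3 pools per genotype, and the files used here hold 1 array per condition.

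Intensities were log2-transformed without a pseudocount or further scaling. Of 45037 probe sets, 37808 with 1 readable gene symbol were used, 1394 had several symbols, 5820 none and 15 an unreadable one. Symbols were updated through RefSeq GRCm38.p6: 31088 were current, 3520 were matched by accession and 384 by an older symbol, and 2816 stayed as in the tables. A gene was read from the probe set that was brightest on average, and was counted where this average lay above the median of all such averages (35.1). Differences of log2 values were computed for 4 pairs of arrays, and genes at least 2-fold apart were counted. No p-value was computed, since there are no replicates, and precision is limited by the number of arrays. The counting was tested on simulated data. Promoter windows came from RefSeq. Python 3.11.15, numpy 2.4.6, pandas 2.3.3 and matplotlib 3.10.9 were used.

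Genes named in the text were every antagonist with every probe set, up to 4 genes per pathway list with the largest untreated difference among those 2-fold apart the same way in both genotype pairs, the 5 genes nearest to Sfrp2, and Atp2b4. The marker genes named singly were chosen after their values were seen. The members and lists were chosen with earlier results of these data known. Alternatives were the Robust Multiarray Average table, median scaling, quantile normalization, the median over probe sets, no filter, a stricter filter, dim values raised to the array median and a 1.5-fold threshold. Subtraction of the median of 100 neighbouring genes and another probe set for Apcdd1 were added after seeing the data.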

Additional observations from a re-analysis of the deposited data

Results flagged for a closer look

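The change with phenylephrine had opposite signs in WT and PMCA4-/- cells for 4 counted antagonists, and in each case the difference was not tested, since each condition had 1 array. Opposite signs were seen in 50.1% of all counted genes, and in 95% of all counted genes the 2 changes differed by less than 0.54 on the log2 scale. The change in PMCA4-/- cells minus that in WT cells was −0.89 for Sfrp2, from −0.23 in PMCA4-/- cells and a value in WT that has no fold change, since both WT arrays were dim. With RMA both changes of Sfrp2 had the same sign, at −0.42 and −0.30. For Dkk2, the Dickkopf protein that binds LRP6, the changes were 0.09 in WT and −0.35 in PMCA4-/- cells, a difference of −0.44, and with RMA they were −0.02 and −0.34. The difference was −0.089 for Sfrp1 and 0.13 for the Dickkopf receptor Kremen1. With RMA both changes of Kremen1 had the same sign, at −0.10 in WT and −0.06 in PMCA4-/- cells, and those of Sfrp1 had turned round, from 0.07 and −0.02 to −0.02 and 0.02.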

How the results depend on the processing

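Of 122 member values between genotypes recomputed under the alternatives, 102 kept their direction and their side of 2-fold, 7 fell below 2-fold (all in Sfrp5 and Frzb, which were not counted), 8 passed it (Apcdd1 in 6 and Sfrp4 in 2) and 5 changed sign while under 2-fold as reported (Wif1, Sfrp5 and Kremen1). Of 100 values for phenylephrine 16 changed sign, and no value past 2-fold changed sign in either set. Sfrp2 and Dkk3 were past 2-fold in both genotype pairs under every alternative run, at log2 differences of 5.58 to 12.41 and 1.45 to 1.68 without phenylephrine and 5.35 to 11.66 and 1.47 to 1.83 with it. The upper ends for Sfrp2 come from dim WT values and do not measure the size of its difference. With no filter, 4 antagonists in place of 2 were 2-fold apart without phenylephrine (Sfrp5 and Frzb were added), and 1 in place of 0 with phenylephrine in WT (Sfrp5). At 1.5-fold, 4 were apart between genotypes with phenylephrine (Sfrp4 and Apcdd1 were added) and 1 with phenylephrine in WT (Sfrp2, dim on both of these arrays). With RMA, with the median over probe sets, or with another probe set of Apcdd1, which was chosen after seeing the data, 3 were apart in both genotype pairs, Apcdd1 being added as lower, and with median scaling or quantile normalization Sfrp4 was added with phenylephrine, at 1.00 and 1.03. The cause was not tested. Over all counted genes, 1148 were 2-fold apart between untreated genotypes, against 774 with RMA, 4917 with no filter, 411 with the stricter filter and 2558 at 1.5-fold, and 1206 with phenylephrine, against 788, 4945, 440 and 2686. Between treated and untreated cells, 54 genes were 2-fold apart in WT and 58 in PMCA4-/- cells, against 1 and 5 with RMA, 2 and 6 with dim values raised to the array median, 5 and 6 with the stricter filter, 151 and 139 with the median over probe sets, 184 and 197 at 1.5-fold and 3189 and 2928 with no filter. No paired analysis was possible because each group has 1 array and shares no more than 1 replicate number with another group. Genotypes were compared within each treatment, and an additive fit of genotype and treatment, which would leave 1 residual degree of freedom, was not run. Values below the array median carry little signal over background, so with PUMA the levels of Sfrp5, Wif1 and of Sfrp2 in WT have only an upper limit.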
